A study of Drosophila melanogaster with 6 samples.

Results

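The odorant-binding protein (Obp) genes of *Drosophila melanogaster* were followed in adult male flies that overexpressed lncRNA-CR33942, a long noncoding RNA. The members were chosen by name: every gene whose symbol starts with Obp followed by a digit, which gave 45 of the 15656 genes in the deposited table. RNA was taken 12 h after *E. coli* infection from 3 samples of lncRNA-CR33942-overexpressing flies (genotype Gal80ts; Tub>lncRNA-CR33942) and 3 samples of control flies (genotype Gal80ts; Tub-Gal4/P{CaryP}attP40). All 6 samples therefore came from infected males that carried the tubulin-promoter Gal4 driver, which acts in most tissues, and Gal80ts, a temperature-sensitive repressor of Gal4. Rearing was at 18°C, the driver was released at 29°C for at least 24 h, and males were 3 to 5 d old when infected. Uninfected flies were not analysed here, so the values compare genotypes after infection and do not show a response to infection.

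Odorant-binding proteins are small secreted proteins, folded around a hydrophobic pocket and held together by disulfide bonds. In the antenna and the taste organs they are released by support cells into the fluid around the sensory neurons, where they carry odorants and other hydrophobic ligands. Many members of the family are made outside the sense organs, in the fat body, in glia and in the male reproductive tract, whose secretions reach the female with the semen. The name therefore marks a protein fold and not a sensory role.

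Library totals ran from 16894595 to 19423287 reads, and the values below are normalized read counts, that is, reads divided by 1 size factor per library. The overexpressed RNA, listed under its older symbol pncr016:2R, had 203, 210 and 177 normalized counts in control libraries 1, 2 and 3 and 4452, 4914 and 4544 in overexpression libraries 1, 2 and 3, so the libraries matched their genotypes. Counts were compared by limma on the log2(normalized count + 1) scale over the 13196 genes whose mean reached 0.5 FPKM (fragments per kilobase of gene and per fixed number of reads), with p-values adjusted over all of them. A gene was called when its adjusted p was under 0.05. The labels do not say whether the samples were raised and infected separately, so these p-values measure only the spread between the samples. The samples were of male adult fly material with no tissue named, so fewer cells of a type and less RNA per cell cannot be told apart.

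The members spanned several orders of magnitude in level. Per length, Obp56g was the most abundant member with a mean of 1485 FPKM over the 6 libraries, followed by Obp99c (807), Obp51a (652), Obp56d (492) and Obp44a (463). Obp99b (235), Obp57c (227), Obp19d (170), Obp56a (161) and Obp99a (128) completed the 10 members with at least 100 FPKM. The classical antennal members were far lower, with 4.68 FPKM for Obp28a, 2.97 for Obp83b and 2.23 for Obp83a. Taken over the 6 libraries together, the range of each of these 10 members overlapped that of the next in this order, except that the lowest value of Obp56g exceeded the highest of Obp99c, and the lowest of Obp44a the highest of Obp99b. As a group the 45 genes held between 0.319% and 0.358% of the summed values of a library, and the 5 members with the highest counts held 72.0% to 74.9% of that. Of the 45 members, 35 passed the filter and were tested, and 10 lay below it. The plot of levels shows every member in every library.

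**Figure D1:**
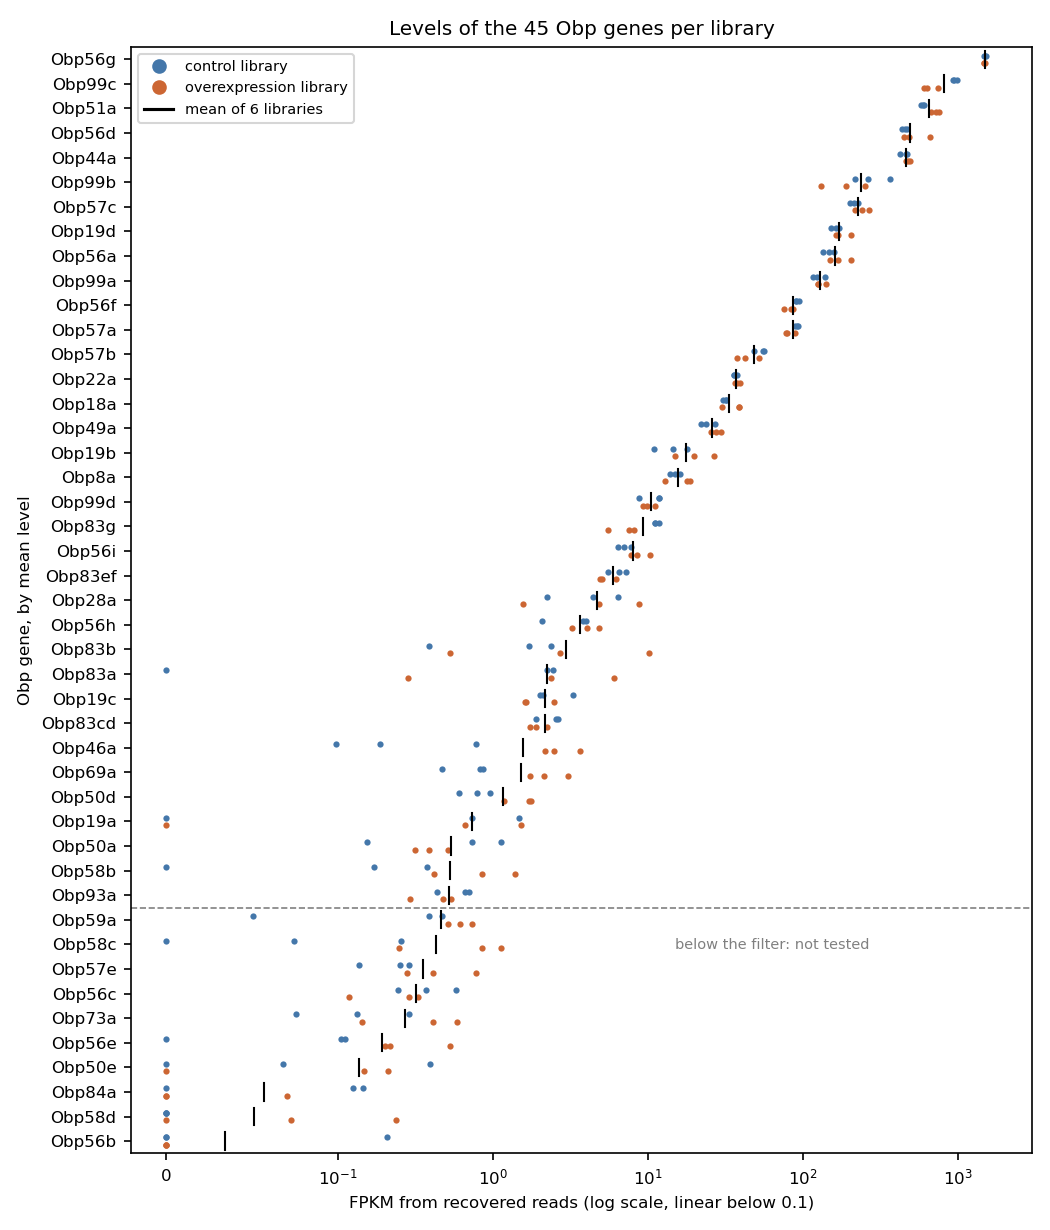
FPKM of the 45 Obp genes in each of the 3 control libraries (blue) and 3 overexpression libraries (orange), on an axis that is logarithmic above 0.1 FPKM and linear below it, with the mean of the 6 libraries as a black bar. Levels fell from 1485 FPKM for Obp56g to 0.0346 FPKM for Obp56b, and the 10 genes below the dashed line were not tested.

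In the comparison of overexpressing with control flies, Obp46a, Obp69a and Obp51a were upregulated, Obp99c and Obp83g were downregulated, and 30 of the 35 tested members were not called. The 3 upregulated members were 8.57% of those tested, where 3.18% of all genes tested were upregulated. The 2 downregulated members were 5.71%, where 5.24% of all genes were downregulated. In either direction the share was 14.3%, or 5 genes, against 8.42%. The groups did not overlap for 10 members, or 28.6%, close to the 27.3% of all genes. Of these, 5 members lay higher in every overexpression library (12.9% of all genes did) and 5 lay lower (14.4% of all genes did). Among the higher members Obp46a, which was also called, and Obp58b passed the filter only through the overexpression group. The median log2 fold change was 0.04 over the 35 members and 0.01 over all genes tested, with 20 members above 0 and 15 below. Upregulated members numbered 1 without control replicate 1 or without control replicate 3. Over all genes the upregulated fell from 420 to 201 and 235 in these fits. Downregulated members numbered 1 without control replicate 1, control replicate 3 or overexpression replicate 3, and 5 without overexpression replicate 2. Over all genes the downregulated fell from 691 to 328, 394, 609 and 546 in these fits, in that order. Members with larger fitted changes that were not called had wide standard errors, as the plot of fold changes shows.

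**Figure D2:**
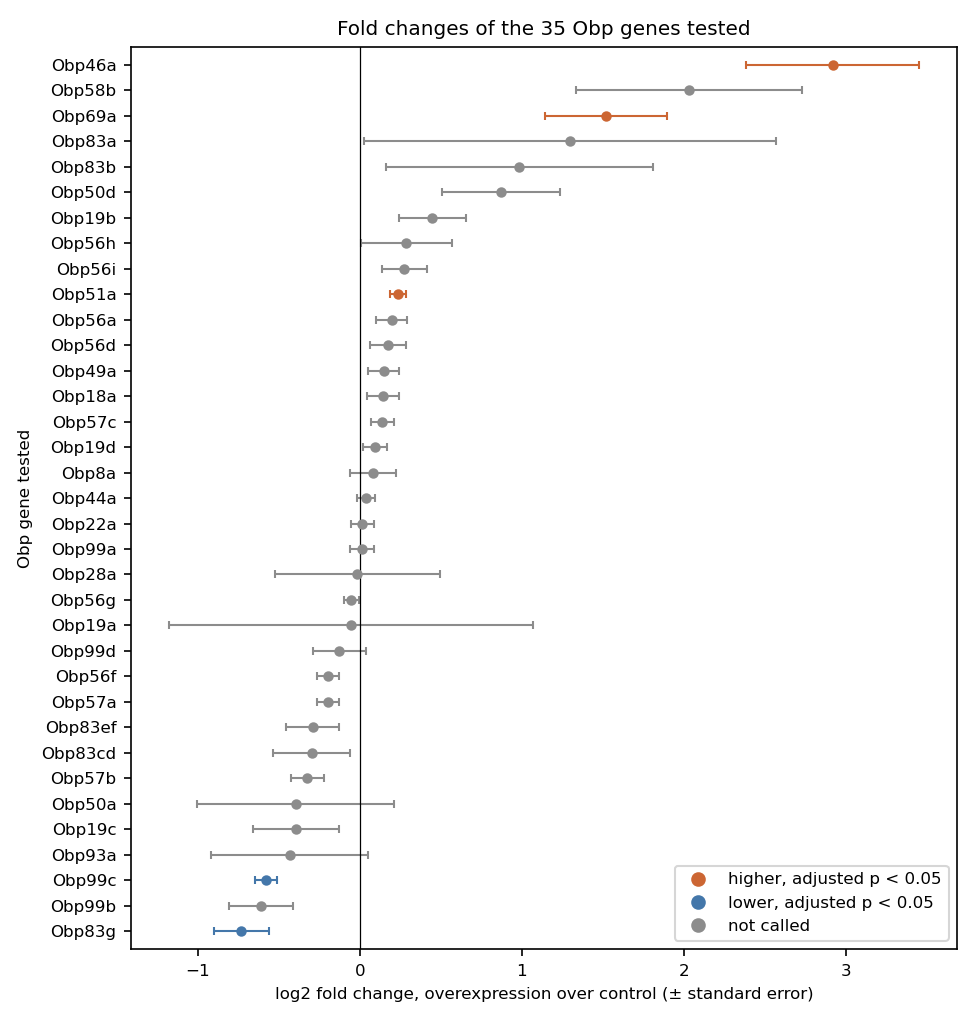
Log2 fold change (overexpression over control) of the 35 Obp genes tested, with its standard error from limma. The 3 upregulated genes are in orange and the 2 downregulated genes in blue. Obp46a (2.92) and Obp83g (-0.73) lie at the ends, and most members lie near 0.

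Obp46a and Obp69a rose from few reads per library to higher but still low counts. Obp46a (chromosome 2R, 10311172 to 10312023, dm6) belongs to the Plus-C class of the family, whose proteins carry additional conserved cysteines. It had 2.03, 1.07 and 8.53 normalized counts in the control libraries and 22.8, 38.6 and 26.4 in the overexpression libraries. All 3 overexpression libraries exceeded all 3 control libraries, and the log2 fold change was 2.92 with a standard error of 0.54 (adjusted p = 0.00493 by limma). These values rest on 12 reads in all in the control group and 89 in the overexpression group. Its level per length went from 0.354 to 2.77 FPKM, so it passed the filter of 0.5 FPKM only through the overexpression group. The nearest genes did not rise with it: CG12909, 28 bases away, was not called (log2 fold change 0.17), and Ndg, 1867 bases away on the other side, fell by 0.40 on the log2 scale (adjusted p = 0.0428 by limma).

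Obp69a (chromosome 3L, 12396171 to 12396957) is an antennal member linked to social behaviour that depends on pheromones. It had 8.13, 8.60 and 4.74 normalized counts in the control libraries and 16.9, 29.5 and 20.8 in the overexpression libraries. The groups did not overlap, and the log2 fold change was 1.52 with a standard error of 0.38 (adjusted p = 0.0262 by limma), on 21 and 68 reads in all. The call was lost without any of 4 of the libraries: leaving out control replicate 1 gave an adjusted p of 0.0622, control replicate 3 one of 0.0877, overexpression replicate 2 one of 0.111 and overexpression replicate 3 one of 0.0642 (limma). Obp69a shares 53 of its 546 exon bases with CG32104, which lies on the opposite strand and had between 132 and 164 normalized counts. CG32104 itself was not called (log2 fold change 0.14). Since the use of strand in counting is not given, reads from the shared bases could not be assigned.

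Obp51a, a rapidly evolving member made in the male reproductive tract and passed on in seminal fluid, showed a small rise. This gene (chromosome 2R, 15024375 to 15024839) had 4326, 4308 and 4200 normalized counts in the control libraries and 4753, 5053 and 5312 in the overexpression libraries. Every overexpression library exceeded every control library, and the log2 fold change was 0.23 with a standard error of 0.051 (adjusted p = 0.0134 by limma). Leaving out control replicate 1 (adjusted p = 0.0549) or control replicate 3 (adjusted p = 0.0711, both by limma) ended the call. Obp51a lies within hbs on the opposite strand but shares 0 exon bases with it, and hbs had at most 116 normalized counts in a library.

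**Figure D3:**
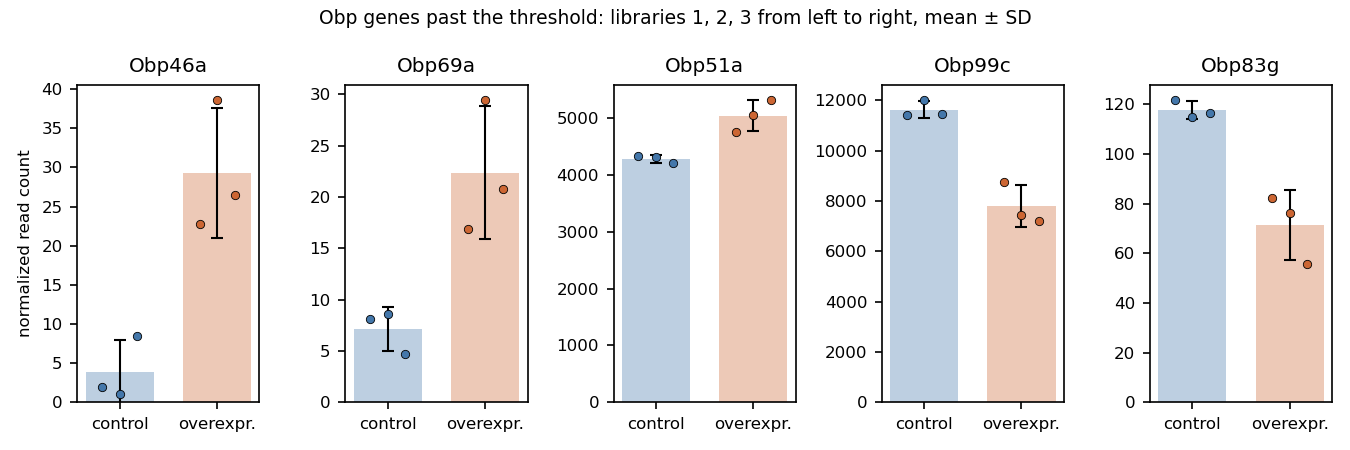
Normalized read counts of the 5 called Obp genes in libraries 1, 2 and 3 of each group (points, left to right), with the group mean (bar) and SD (whiskers), each panel on its own axis from 0. In all 5 panels the points of the groups are apart. Obp46a (at most 38.6) and Obp69a (at most 29.5) rest on few counts, whereas the lowest library had 7191 for Obp99c and 4200 for Obp51a.

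Obp99c had the smallest adjusted p of the family. It is expressed in the fat body, the fly's counterpart of liver and adipose tissue, and in other non-sensory tissue. The gene (chromosome 3R, 29685736 to 29689311) had 11429, 12034 and 11462 normalized counts in the control libraries and 8759, 7459 and 7191 in the overexpression libraries. Every overexpression library lay below every control library, with a mean of 7803 ± 839 against 11642 ± 340 (SD, n = 3 each) and a log2 fold change of -0.58 with a standard error of 0.068 (adjusted p = 0.000242 by limma). Obp99c stayed downregulated without any 1 of the 6 libraries. It shares 23 bases with Gycalpha99B on the opposite strand, which had at most 595 normalized counts in a library.

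Obp83g was the other downregulated member. It lies on chromosome 3R at 6111671 to 6112302, 636 bases from Obp83ef. It had 122, 115 and 117 normalized counts in the control libraries and 82.4, 76.3 and 55.7 in the overexpression libraries. The groups did not overlap, and the log2 fold change was -0.73 with a standard error of 0.17 (adjusted p = 0.0188 by limma). The call was lost when control replicate 1 (adjusted p = 0.0871), control replicate 3 (adjusted p = 0.0652) or overexpression replicate 3 (adjusted p = 0.0539, all by limma) was left out. Its neighbours Obp83ef and Obp83cd, which encode proteins with tandem OBP domains, had log2 fold changes of -0.29 and -0.30 and were not called. Obp83ef had 90.4, 106 and 120 normalized counts in the control libraries and 78.4, 99.7 and 80.2 in the overexpression libraries, which overlapped.

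The 4 members at the Obp99 locus are expressed outside the sense organs, and Obp44a is a glial lipid-binding member. The lowest fold change of these 5 genes was that of Obp99b, which is known as a gene of the adult male fat body. Obp99b had 2819, 3899 and 2365 normalized counts in the control libraries and 2005, 2630 and 1385 in the overexpression libraries. The groups overlapped, since overexpression library 2 exceeded control library 3, and the log2 fold change of -0.61 did not pass (standard error 0.20, adjusted p = 0.0823 by limma). Without overexpression replicate 2 it was downregulated, with a log2 fold change of -0.83 (adjusted p = 0.0126 by limma).

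The other 3 genes of this group differed by less than their spread. Obp99a had 1284, 1546 and 1376 normalized counts in the control libraries and 1528, 1353 and 1359 in the overexpression libraries. Obp99d had 79.2, 107 and 108 and then 98.3, 87.5 and 82.1 normalized counts in the same order. Obp44a had 8220, 9170 and 9130 and then 8788, 9349 and 9067. The groups overlapped for each of them, with log2 fold changes of 0.01, -0.13 and 0.04. Within the Obp99 locus, then, Obp99c was lower in every overexpression library than in any control library, while Obp99a was not.

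Fat body markers were also lower with overexpression. Of 8 marker names listed for the fat body 5 were in the table, and all 5 were downregulated. They were Rfabg (log2 fold change -0.42), a lipid carrier of the blood, Desat1 (-0.34), a fatty acid desaturase, Lsd-1 (-0.75), a lipid droplet protein, Lsp2 (-1.59), a storage protein of the blood, and Fbp1 (-1.69), the receptor for such proteins. The groups overlapped for Rfabg and Fbp1, while the other 3 markers were lower in every overexpression library. The summed level of the 5 markers was 71541 to 81267 normalized counts in the control libraries and 51411 to 65184 in the overexpression libraries. The part of this in the fall of Obp99c was not tested. Obp99b and Fbp1 ranked the 6 libraries alike, a likeness noticed after the values were seen. Fbp1 had 851, 1703 and 605 normalized counts in the control libraries and 221, 662 and 177 in the overexpression libraries. In both genes control library 2 was the highest, followed by control 1, overexpression 2, control 3, overexpression 1 and overexpression 3. Of the 5 glial markers, Gat (listed as CG1732, -0.29) and Eaat1 (-0.26) were downregulated. The defining glial factor repo had 283 to 356 normalized counts in the control libraries and 358 to 398 in the overexpression libraries. Of the 7 gut markers tested, Jon25Biii (-0.35), Jon99Cii (-0.48) and Jon99Ciii (-0.48) were downregulated, and the other 4 were not called.

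**Figure D4:**
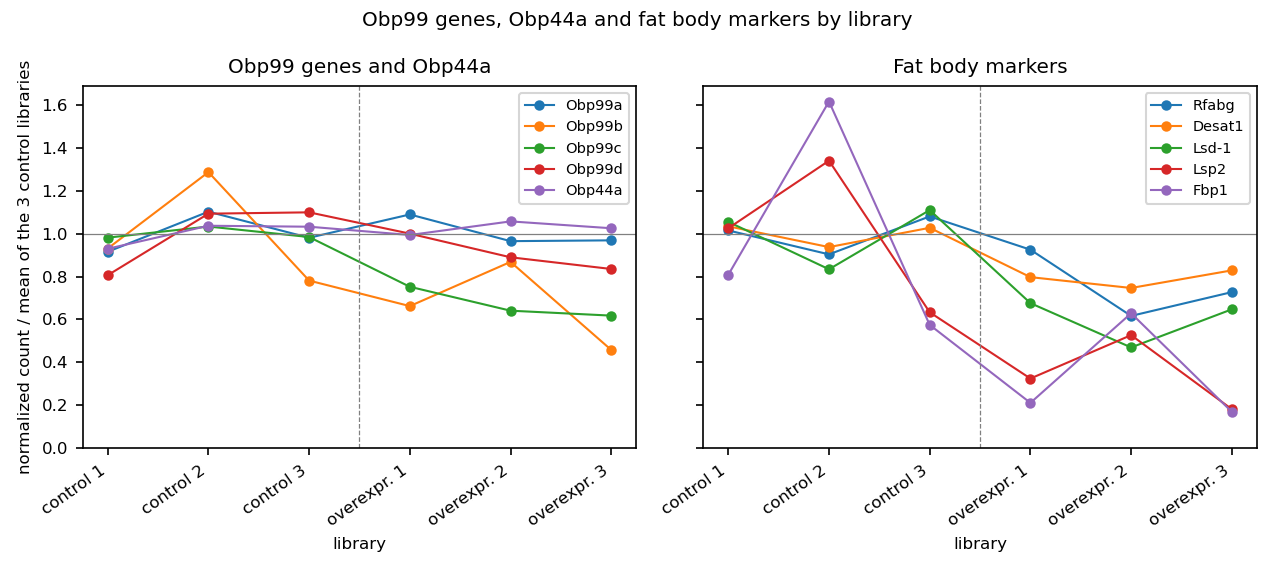
Normalized read count of each gene divided by its mean over the 3 control libraries, by library. Left, the 4 Obp99 genes and Obp44a. Right, the 5 fat body markers found. Obp99b, Obp99c and all 5 markers lie below 1 in every overexpression library, although the groups of Obp99b overlap, whereas Obp99a and Obp44a stay near 1.

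Of the 9 members known from the antenna, 7 were tested and Obp69a alone was called. Obp83a and Obp83b, neighbouring genes whose proteins fill the pheromone-sensing hairs, varied widely between libraries of one genotype. Obp83a had 43.7, 39.8 and 0 normalized counts in the control libraries and 4.96, 106 and 41.5 in the overexpression libraries. Obp83b had 16.3, 22.6 and 3.79 and then 4.96, 94.6 and 25.5. For both genes control library 3 and overexpression library 1 were the lowest, overexpression library 2 was the highest, and the groups overlapped. The fitted log2 fold changes of 1.30 and 0.98 had standard errors of 1.27 and 0.82 and were not called. Without control replicate 3 that of Obp83a was -0.51.

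Obp28a and Obp19a, which are also released in olfactory hairs, followed the same libraries. Obp28a had 45.7, 66.6 and 23.7 normalized counts in the control libraries and 15.9, 88.5 and 49.1 in the overexpression libraries. Obp19a had 17.3, 8.60 and 0 and then 0, 17.3 and 7.55. Again control library 3 and overexpression library 1 were the lowest, and for Obp19a control library 1 was level with overexpression library 2 at the top. Their log2 fold changes were -0.01 and -0.06, with standard errors of 0.51 and 1.13. The coefficient of variation within groups was 102% for Obp19a, 93.7% for Obp83a, 90.0% for Obp83b and 59.2% for Obp28a. Members outside the antennal list also varied widely, with 79.1% for Obp58b, 66.4% for the called Obp46a and 49.2% for Obp50a. Over the 2966 genes tested with a mean between 5 and 100 normalized counts this coefficient had a median of 21.0% and a 90th percentile of 45.2%.

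Some antennal genes outside the family gave the same order of libraries. Os-C, an antennal secreted protein, had 30.5, 37.6 and 12.3 normalized counts in the control libraries and 1.99, 78.3 and 30.2 in the overexpression libraries. The gene a10 had 29.5, 31.2 and 5.69 and then 0.993, 79.3 and 37.7. Orco, the co-receptor of the odorant receptors, had 25.4, 27.9 and 13.3 and then 9.93, 34.6 and 29.3. Control library 3 and overexpression library 1 were the lowest and overexpression library 2 the highest for all 3, as for a5, which was at 0 in those low libraries and at 16.3 in overexpression library 2. Yet lush, an odorant-binding protein gene outside the naming rule, stayed between 18.3 and 31.1 normalized counts, and Snmp1, a membrane protein of pheromone sensing, between 247 and 317. Ir25a had 57.9, 50.5 and 56.9 normalized counts in the control libraries and 39.7, 53.9 and 51.0 in the overexpression libraries. Ir76b had 20.3, 24.7 and 26.5 and then 25.8, 24.4 and 33.0, so neither gave that order. Ir8a, the last of the 9 antennal markers listed, had at most 5.08 in a library. The 9 antennal markers summed to 418 to 449 normalized counts in the control libraries and to 347, 637 and 492 in the overexpression libraries. Snmp1 alone gave 247 to 317 of these counts, so the sums show little of the dips of Os-C, a10, a5 and Orco. Whether the libraries held unequal amounts of antennal RNA was not tested.

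**Figure D5:**
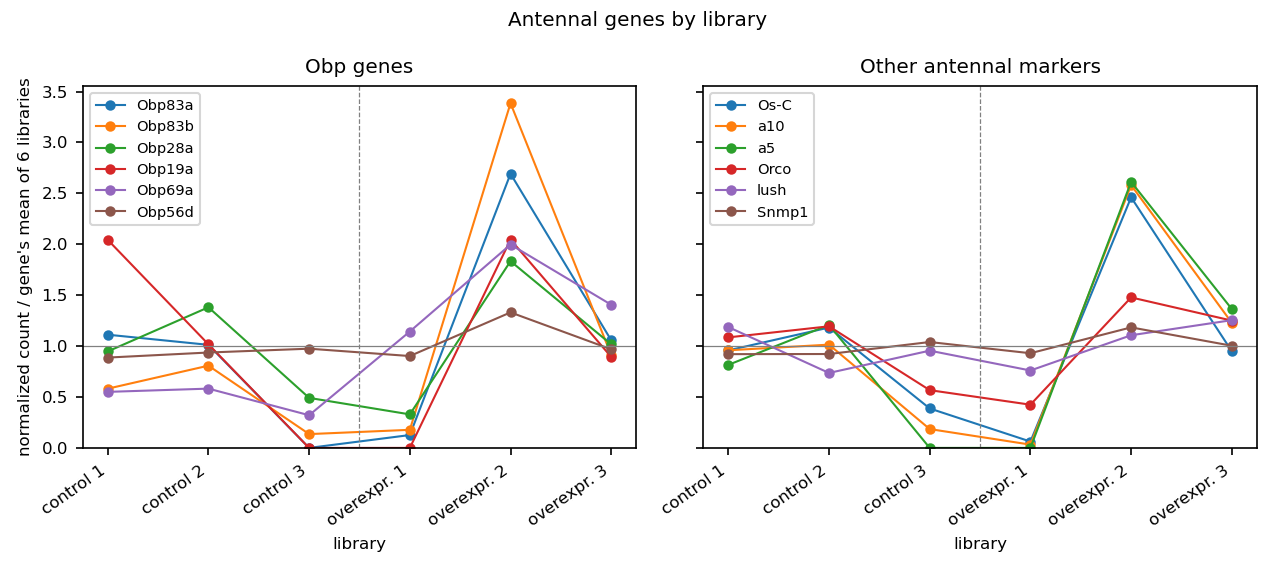
Normalized read count of each gene divided by its mean over the 6 libraries, by library. Left, 6 antennal Obp genes. Right, 6 of the 9 other antennal markers. Obp83a, Obp83b, Obp28a, Obp19a, Os-C, a10, a5 and Orco dip in control library 3 and overexpression library 1 and peak in overexpression library 2 (for Obp19a level with control library 1). Obp56d, lush and Snmp1 vary less, although Obp56d and Snmp1 are also highest in overexpression library 2.

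Obp56d and Obp19d, found in many sensory organs beyond the antenna, were far more abundant and steadier. Obp56d had 7221, 7626 and 7932 normalized counts in the control libraries and 7344, 10833 and 7881 in the overexpression libraries. Obp19d had 3269, 3395 and 3067 and then 3196, 3973 and 3262. Overexpression library 2 was the highest for both, but control library 3 was the highest control library for Obp56d and the lowest for Obp19d. The log2 fold changes were 0.17 and 0.09 and were not called. The antennal members below the filter were Obp59a, a gene needed for humidity sensing, which had at most 13.2 normalized counts in a library, and Obp84a, which had at most 2.15. Obp69a shared the peak in overexpression library 2, but its overexpression library 1 value of 16.9 was above all of its control values. Without control replicate 3 and overexpression replicate 1, a setting added once the data had been seen, the log2 fold change of Obp69a was 1.46 (adjusted p = 0.108 by limma).

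None of the 6 tested members known from taste organs was called. Obp49a, which binds bitter compounds and dampens the response of sweet-sensing neurons, had 310, 383 and 340 normalized counts in the control libraries and 382, 407 and 353 in the overexpression libraries. Obp19b, which is needed to taste some amino acids, had 128, 171 and 213 and then 225, 306 and 172. The groups overlapped for both, with log2 fold changes of 0.15 and 0.45. That of Obp19b had a standard error of 0.21 and missed the threshold (adjusted p = 0.229 by limma).

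Obp57a, Obp57b and Obp57c lie side by side, and none of them passed the threshold. Obp57a had 920, 894 and 958 normalized counts in the control libraries and 765, 880 and 777 in the overexpression libraries. Obp57b had 724, 825 and 844 and then 619, 756 and 549. Obp57c had 2032, 2146 and 2310 and then 2386, 2613 and 2153. All 3 overexpression libraries lay below all control libraries for Obp57a only. The log2 fold changes were -0.20 (adjusted p = 0.0961), -0.32 (adjusted p = 0.0754) and 0.14 (adjusted p = 0.283, all by limma). Without overexpression replicate 2, Obp57a (-0.26, adjusted p = 0.0311) and Obp57b (-0.45, adjusted p = 0.00700, both by limma) were downregulated. Obp57e, a gene known for its part in host-plant taste in a related fly species, had at most 5.66 normalized counts in a library and was not tested.

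Of the 7 members found in seminal fluid, 6 were tested and Obp51a alone was called. Obp56g, which the male transfers at mating and which is needed for the mating plug, had 13604, 13216 and 13537 normalized counts in the control libraries and 13090, 12840 and 12959 in the overexpression libraries. Obp56f had 898, 862 and 871 and then 780, 707 and 812. For both genes every overexpression library was below every control library, but the log2 fold changes of -0.05 and -0.20 did not pass (adjusted p = 0.563 and 0.0889 by limma).

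The other tested seminal members overlapped between the groups. Obp22a had 470, 475 and 502 normalized counts in the control libraries and 487, 469 and 509 in the overexpression libraries, a log2 fold change of 0.02. Obp8a had 174, 162 and 152 and then 188, 197 and 137, a log2 fold change of 0.08. Obp56i had 120, 131 and 148 and then 188, 141 and 156, a log2 fold change of 0.27. None of these changes exceeded 2 standard errors. Obp56e had at most 4.96 normalized counts in a library and was not tested.

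Markers of the male reproductive tract did not rise with Obp51a. The 12 accessory gland markers tested summed to 62226 to 64602 normalized counts in the control libraries and 55426 to 59849 in the overexpression libraries, and 3 of them (Acp62F, Acp63F and Acp76A) were downregulated. Of the 6 markers of the ejaculatory duct and bulb, Peb (log2 fold change -0.42) and PebII (-0.47), which form the mating plug, were downregulated and none was upregulated. None of the 7 testis markers was called.

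Obp58b and Obp50d were the tested members that lay higher in every overexpression library without being called. Obp58b had 0, 2.15 and 4.74 normalized counts in the control libraries and 16.9, 5.08 and 10.4 in the overexpression libraries, on 7 and 33 reads in all. Its group means were 0.182 and 0.883 FPKM, so it passed the filter of 0.5 FPKM only through the overexpression group. Obp50d had 10.2, 6.45 and 8.53 and then 17.9, 18.3 and 12.3. Their log2 fold changes of 2.03 and 0.87 did not pass (adjusted p = 0.0966 and 0.179 by limma). Obp58c, next to Obp58b and below the filter, had 0, 3.22 and 0.948 normalized counts in the control libraries and 13.9, 3.05 and 10.4 in the overexpression libraries, which overlapped. Obp58d had 0 reads in the control group, which allows up to 3 reads, and 4 reads in the overexpression group. The 3 Obp58 genes together summed to 0, 5.37 and 5.69 normalized counts in the control libraries and to 30.8, 11.2 and 21.7 in the overexpression libraries, with no overlap. This sum was not tested. At the Obp50 locus, Obp50a had a log2 fold change of -0.40 (standard error 0.61) and was not called, and Obp50e, below the filter, had 6 reads in the control group and 5 in the overexpression group.

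The remaining tested members overlapped between the groups. Obp56a, the only one of these above 100 FPKM, had 1337, 1584 and 1479 normalized counts in the control libraries and 1455, 1988 and 1630 in the overexpression libraries (log2 fold change 0.20, standard error 0.097). Obp18a (0.14), Obp56h (0.29), Obp19c (-0.40), Obp83cd (-0.30) and Obp93a (-0.43) were not called either. Of these, Obp93a shares 492 of its 591 exon bases with CG5793 on the opposite strand. Below the filter lay Obp59a, Obp58c, Obp57e, Obp56c, Obp73a, Obp56e, Obp50e, Obp84a, Obp58d and Obp56b. Their mean levels ran from 0.0346 to 0.461 FPKM, and none exceeded 13.9 normalized counts in any library. Of these 10, Obp59a and Obp56e were higher in every overexpression library than in any control library, on counts too low to be tested. The same share was not counted over all genes below the filter. Obp59a shares 224 of its 1011 exon bases with CG30259, and Obp56e 449 of 532 with CR44509, both on the opposite strand. Reads from these shared bases could not be assigned. No member was at 0 in all 6 libraries, and 9 were at 0 in at least 1.

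By position, 24 members lay on chromosome 2R, 11 on 3R, 6 on X, 2 on 2L and 2 on 3L. Both downregulated members were on 3R, where 7 of 10 tested members had a log2 fold change below 0 (median -0.29). On 2R 11 of 16 tested members were above 0 (median 0.16). The same counts were not made over all genes of these arms, so no effect of an arm can be read from them. Fold changes within a locus were mixed. Of the 6 tested Obp56 genes 4 had log2 fold changes above 0 and 2 below, ranging from -0.20 to 0.29 with none called. Of the 4 Obp19 genes 2 were above 0 and 2 below, ranging from -0.40 to 0.45. Of the 5 genes named Obp83 at a pair of sites, the antennal pair Obp83a and Obp83b was above 0 and Obp83cd, Obp83ef and Obp83g were below.

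Overexpression library 2 was the highest library for 17 of the 35 tested members, whereas it was the highest for 19.8% of all genes tested. Control library 1 was the lowest for 12 members and for 18.9% of all genes tested. Members can share a tissue, so they are not separate observations of this order. Of the 45 members, 9 share exon bases with another listed gene on the opposite strand, so part of their reads could not be assigned. Most of the exon bases were shared for Obp93a (492 of 591, with CG5793), Obp84a (663 of 817, with CG10050) and Obp56e (449 of 532, with CR44509). Smaller parts were shared for Obp44a (205 of 1076 bases, with Pabp2) and the neighbours Obp83cd and Obp83ef (92 bases with each other).

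Of the other chemosensory genes tested, Gr8a alone was called. Over all genes tested, 3.18% were upregulated and 5.24% downregulated, so the small number of calls does not set these genes apart. None of the 10 tested genes of a list of carriers, membrane proteins and co-receptors (lush, Os-C, a10, Phk-3, PebIII, Snmp1, Snmp2, Orco, Ir25a and Ir76b) was called, and their median log2 fold change was -0.01. None of the 7 tested odorant receptor genes and none of the 10 tested ionotropic receptor genes was called either. Of the 11 tested gustatory receptor genes 1 was upregulated: Gr8a, which takes part in the sensing of a plant-derived amino acid and of a male pheromone, had 10.2, 5.37 and 7.58 normalized counts in the control libraries and 18.9, 28.5 and 21.7 in the overexpression libraries. The groups did not overlap, and the log2 fold change was 1.48 with a standard error of 0.36 (adjusted p = 0.0236 by limma). The CheA and CheB genes, another family of secreted proteins of male taste hairs, had 11 of 12 tested members above 0 (median log2 fold change 0.43), with none called. Their sums of 442, 533 and 620 normalized counts in the control libraries overlapped those of 696, 1051 and 496 in the overexpression libraries.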

How the data were processed

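Polyadenylated RNA of adult males was sequenced as paired ends. Per the labels, the authors aligned reads with HISAT2 2.0.5, counted them per gene with featureCounts 1.5.0-p3 and compared groups with DESeq2, and the processing notes name the dm6 build. The sources used here do not give the annotation release, the use of strand in counting or the treatment of reads shared by genes. Although named FPKM, the deposited table holds a signal: gene-level read counts that the authors had scaled by 1 size factor for each library. Undoing that scaling gave whole reads for 100% of values in every library (tolerance 0.01). The table also holds the log2 fold change and p-value that the authors computed with DESeq2 for their own comparison, which were not used.

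log2(normalized count + 1) was compared between groups with limma 3.58.1 (intensity trend, Benjamini-Hochberg adjustment, R 4.3.3) over genes whose mean reached 0.5 FPKM, a level calculated from recovered reads and the gene lengths in the table. This scale understates changes of low genes. With 3 libraries against 3, an exact permutation test cannot give a two-sided p under 0.1 for a single gene, so none was run. Replicates of a group differed beyond sampling noise in every pair (chi-square per degree of freedom 5.25 to 8.99). The fit was first run on simulated counts with the same dispersion for every gene and with changes larger than that of Obp51a. That run does not cover smaller changes or genes of wider spread, and its outcome is not reported here.

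Alternatives were other pseudocounts, filters and scalings, no trend, edgeR 4.0.16, DESeq2 1.42.0, voom, a replicate block and each library left out. Members named with values were those called, those with an unadjusted p under 0.05, the 10 most abundant, and tested members of role lists. The members and lists were chosen with earlier results of these data known. The reference annotation holds 51 Obp genes. Of these, Obp47a, Obp47b, Obp50b, Obp50c, Obp57d and Obp85a were not analysed here, and no sequences were used here.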

Additional observations from a re-analysis of the deposited data

How the results depend on the processing

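The numbers of upregulated and downregulated members were 3 and 2 with the deposited scaling, and the same numbers came from edgeR, DESeq2, voom, a pseudocount of 0.1, no filter, quantile normalization and scaling to the library total. With a mean of at least 5 FPKM, 1 was upregulated and 2 downregulated, since Obp46a and Obp69a then fell below the filter. Without the intensity trend 0 were upregulated and 1, Obp99c, was downregulated, and over all genes 94 were upregulated and 99 downregulated in place of 420 and 691. The adjusted p without the trend was 0.0835 for Obp46a, 0.133 for Obp51a, 0.0683 for Obp69a and 0.0904 for Obp83g (limma). The cause was not tested. Scaling to the library total moved the calls over all genes to 632 upregulated and 503 downregulated.

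Leaving out each library in turn gave 1 to 3 upregulated and 1 to 5 downregulated members. Over all genes these fits gave 201 to 393 upregulated and 328 to 618 downregulated. Without control replicate 3 and overexpression replicate 1, chosen after the data were seen because antennal genes were low there, 1 was upregulated (Obp46a) and 1 downregulated (Obp99c), with 4 libraries left. Obp99c stayed called under every alternative run, and Obp46a under all but no trend and the filter of 5 FPKM.

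Samples with the same replicate number did not deviate together over all genes tested (correlations of -0.03, 0.05 and -0.04). Between different replicate numbers the correlations ran from -0.045 to 0.081, the latter for control 3 with overexpression 1. These correlations therefore show no pairing by replicate number. The labels do not say whether samples with the same number were handled together. With the replicate block, 4 members were upregulated and 4 downregulated, Obp56a, Obp57b and Obp99b being added. Over all genes 517 were then upregulated and 846 downregulated.

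Directions turned only for members that were not called. Obp28a (-0.015) was at 0.025 with library totals, 0.18 with edgeR, 0.17 with DESeq2, 0.0064 with voom and 0.25 without control replicate 3 and overexpression replicate 1, and Obp19a (-0.055) was at 0.022 with voom. Without those same libraries Obp50a was at 0.13, Obp8a at -0.031 and Obp99a at -0.055. With each library or those 2 libraries left out, the log2 fold changes of members that turned ran from -1.30 to 1.16 for Obp19a, -0.0052 to 0.15 for Obp19d, -0.014 to 0.047 for Obp22a, -0.56 to 0.65 for Obp28a, -0.013 to 0.085 for Obp44a, -1.10 to 0.13 for Obp50a, -0.0085 to 0.46 for Obp56h, -0.51 to 2.46 for Obp83a, -0.031 to 0.24 for Obp8a and -0.055 to 0.087 for Obp99a. Few reads limit the low members: Obp46a, Obp69a and Obp58b rest on 12, 21 and 7 control reads.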
